A study of Mus musculus with 14 samples.

Results

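The 9 mRNAs described here (Lrrc59, Cad, Npm1, Odf2, Phf20, Etf1, Plekhm1, Tfrc and Ddx3x) were named by the study as cut outside annotated miRNA genes in mouse embryonic stem cells (ESCs). All sites annotated to these genes were taken, whatever their values. They came to 17 of the 5990 positions measured in either of the 2 comparisons, with at least 1 site for each of the 9 genes in both. The Drosha comparison held 15 of them among 3919 sites and the Dicer comparison held 14 among 4666, and 12 were shared. The shared label of these mRNAs, a stem-loop cut by Drosha outside a miRNA, fitted them unevenly. Only Lrrc59, Cad and Phf20 had an entry in the list of stem-loops used here, and the Plekhm1 site lay opposite a family of miRNAs, as shown by the sequences below.

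Drosha is the nuclear RNase III enzyme that releases the hairpin of a miRNA precursor from its primary transcript, together with its partner Dgcr8. Dicer then trims the exported hairpin to the mature miRNA, which guides Argonaute proteins to target mRNAs, and Argonaute2 can cut a target that pairs extensively with its miRNA. Drosha also cuts some mRNAs directly, the hairpins in the Dgcr8 mRNA being a well-known case. Drosha and Argonaute2 both leave a 5′ phosphate on the downstream fragment, and Degradome-seq records such ends by ligating an RNA linker to polyadenylated RNA with a 5′ phosphate. A pile-up site is the first base of such reads, and its value is given in RPM, the reads that start there scaled to the mapped reads of the library.

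The Drosha comparison used ESCs homozygous for a conditional Drosha allele (Drosha fl/fl) with CreERT2 in the Rosa26 locus. Drosha was removed by 72 h of 4-hydroxytamoxifen at 100 nM, followed by 48 h in medium without it, and controls were the same line untreated, so that the tamoxifen ligand and the Cre activity it turns on differed together with Drosha. The Dicer comparison used Dicer fl/fl ESCs infected with a retrovirus that carried GFP-Cre (deficient) or GFP alone (control), sorted for GFP on day 3 and cultured for 2 more days. Each of these 4 groups had 2 libraries, and RNA-seq was done on 3 control and 3 deficient samples of the Drosha line. All cells were kept with LIF on mitotically inactivated embryonic fibroblast feeders, so RNA of the feeders could be present in the libraries.

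The 8 Degradome-seq libraries were of similar depth, 1 read being worth 0.0289 to 0.0349 RPM. The tabulated sites took 8.69 to 12.6% of the mapped reads in the Drosha comparison and 23.1 to 30.1% in the Dicer comparison. Reads that mapped to several places took 37.6 and 41.8% of the control and 26.9 and 28.7% of the deficient libraries of the Drosha line, and 38.4 and 38.8% against 31.7 and 33.5% in the Dicer line. This share moved with the groups in both lines. When values were scaled by uniquely mapped reads instead, the median change over the whole table, on the log2 scale, went from -0.93 to -1.20 in the Drosha and from -0.12 to -0.25 in the Dicer comparison. In the RNA-seq samples all 10 ESC markers were measured, at authors' mean log2 CPM of 5.96 to 10.19 (median 8.78), among them Pou5f1 at 9.78 and Nanog at 9.13. All 10 feeder fibroblast markers were measured too, from -2.30 for Twist2 to 11.20 for Fn1 (median 3.81), with Col1a1 at 6.60. Per-library values of these markers were not analysed here, and the part of feeder RNA in the results below was not tested. The 9 mRNAs themselves had authors' mean log2 CPM between 5.82 (Plekhm1) and 11.04 (Npm1), a value not scaled for transcript length. Their mRNA levels in each library were not analysed here, and whether a fall at a site went with a fall of the whole mRNA was not tested.

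All positions are on mouse GRCm38. Of the 17 sites, 9 lay in coding sequence, 3 in a 5′ UTR and 5 in a 3′ UTR, and all 17 lay on the strand of their gene. The sequences that the results turn on are shown next, as RNA in the sense of the mRNA. The stem-loops of Lrrc59 and Cad come first, since these 2 had both a listed stem-loop and a coding-sequence site, with the first 5 bases at each site in capitals. Lrrc59 is on the plus strand at chr11:94634604-94634693 (exon 3 of 7), with sites at 94634627 and 94634679, and Cad on the plus strand at chr5:31072889-31072973 (exon 29 of 44), with its site at 31072908.
Lrrc59 stem-loop: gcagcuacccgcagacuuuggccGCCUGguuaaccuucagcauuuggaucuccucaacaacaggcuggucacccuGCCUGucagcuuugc
Cad stem-loop: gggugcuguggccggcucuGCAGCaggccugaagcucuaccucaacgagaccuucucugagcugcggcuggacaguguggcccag

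Both Lrrc59 ends began with GCCUG, 52 nt apart. The Phf20 site, in exon 18 of 18 and in the 3′ UTR, is shown by 30 bases on the plus strand at chr2:156309726-156309755. The pair of neighbouring Odf2 sites, in the same exon and 23 nt apart, is shown on the plus strand at chr2:29914432-29914491, and the second Cad site, 15 nt into exon 15, at chr5:31062462-31062506. Capitals again mark the first 5 bases at each site.
Phf20 site: ccaccuauagaaaguCACCUugacaaaaca
Odf2 sites 29914447 and 29914470: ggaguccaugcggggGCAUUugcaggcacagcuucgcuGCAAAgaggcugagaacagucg
Cad site 31062477: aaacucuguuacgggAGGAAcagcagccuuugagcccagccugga

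The Plekhm1 site is on the minus strand in exon 12 of 12, in the 3′ UTR at chr11:103366164-103366184, 712 nt after the last coding base. Its sequence is shown beside 5 mature miRNAs from RefSeq, since the results for this gene turn on their pairing. Capitals in the Plekhm1 line mark the bases that pair with miR-106b-5p by Watson-Crick pairs when the first base of the site, 103366173, lies opposite position 10 of the miRNA. Capitals in the miRNA lines mark the seed, positions 2 to 8.
Plekhm1 site: AcCaGCACUGUCAGCACUUUg
miR-106b-5p: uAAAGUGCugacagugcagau
miR-17-5p: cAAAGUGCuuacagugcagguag
miR-20a-5p: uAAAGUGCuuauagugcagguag
miR-93-5p: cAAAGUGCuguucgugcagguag
miR-16-5p: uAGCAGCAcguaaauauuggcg

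The first 4 of these miRNAs share a seed, and miR-16-5p has another. The Tfrc 3′ UTR sites are shown because the motif CAGUGN follows each of them. This motif is the loop of the iron-responsive elements for which this UTR is known, but no stem was read for the motif after 32631634. The 3 sequences start at the sites and lie on the plus strand at chr16:32631596-32631625, chr16:32631634-32631663 and chr16:32631661-32631690, with CAGUG in capitals.
Tfrc site 32631596: cacauuaucgggagCAGUGucuuccauaau
Tfrc site 32631634: aacaagguaguuuuugccuaccaCAGUGuc
Tfrc site 32631661: gucuauaucggagaCAGUGaucuccauaug

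The last 2 sequences are shown for a feature of the measurement. The bases just before these sites equal the end of the linker, shown in capitals, over 6 bases at Npm1 (minus strand, chr11:33160349-33160378) and 7 bases at the most upstream Odf2 site (plus strand, chr2:29893047-29893076).
Npm1 site: ucuggaaagCGAUCUgcuccuggagguggu
Odf2 site 29893062: augaaggaCCGAUCUucaacuccccccuua

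A match of the last 3 bases or more was found at 3 of the 17 sites, the third being Cad 31072908 with 3 bases, and at 22.1% of 5988 sites. The share of all sites with matches as long as those at Npm1 and Odf2 was not counted, so 22.1% does not show how common these are. The 30 bases from the Npm1 site occurred 4 times in the genome and those from the Phf20 site 2 times, so reads of these sites could also stem from another copy. For the other 15 sites they occurred once. Whether reads at the matching sites came from the linker match rather than from a cut end was not tested.

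In the Drosha comparison, every one of the 15 sites was lower in both deficient libraries than in both control libraries, and 11 of them, in 8 of the 9 genes, were called decreased. A call required an FDR under 0.05 in limma, adjusted over all sites of the table, and a log2 fold change past 1.5. None was called increased. Among all 3919 sites 37.6% were called decreased (1473 sites) and 375 sites increased, and at 59.9% both deficient libraries lay below both controls. Over the 15 sites the median log2 fold change was -2.12, against -0.93 over the whole table. By the paper's methods, a site had to be classed as a pile-up in both control replicates, which favours sites high in controls. Both comparisons held more sites here than the paper counts as pile-ups in control cells, for a reason not examined. These mRNAs were chosen by the study on these libraries, so their direction here is no independent evidence. In bulk RNA fewer cells of a type and less RNA per cell cannot be told apart.

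The scale mattered to these counts. Scaled by uniquely mapped reads, 1707 sites were called decreased and 281 increased, and 13 of the 15 sites were called. When the libraries were centred on their medians, the medians became -0.34 over the whole table and -1.53 over the 15 sites, 871 sites were called decreased and 602 increased, and 9 of the 15 sites kept the call. With edgeR and TMM factors on recovered reads the median over the whole table moved to -0.03 and that over the 15 sites to -1.33. The split was 636 decreased and 780 increased, and the call held at 5 of the 15 sites (Lrrc59 94634627, Odf2 29914447, Odf2 29914470, Phf20 and Plekhm1). Under that scaling the log2 fold changes of Ddx3x (0.12) and of Tfrc 32631596 (0.16) turned positive, while the other 13 stayed negative.

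In the Dicer comparison no site was called: 0 of the 14 sites and 0 of 4666, or 0%, by limma, and also 0 by edgeR. Neither fit took the replicate number as a term. The smallest FDR by limma was 0.465, while 8 of the 14 sites and 459 of all sites had an unadjusted p under 0.05. By size alone, 6 of the 14 sites (in Plekhm1, Tfrc, Etf1, Phf20 and Odf2) had a log2 fold change under -1.5, against 1.46% of all sites. With the replicate number as a term limma called these 6, though the samples share only that number in the labels. The closing section gives this result with the count over all sites. With a pseudocount of 1 RPM only Odf2 29914447 of the 14 was under -1.5 (-1.69), as were 9 of 4666 sites. Both deficient libraries lay below both controls at 11 of the 14 sites, against 27.4% of all sites. Over the 14 sites the median log2 fold change was -1.39, against -0.12 over the whole table. As in the Drosha comparison, the paper's methods counted a position as a pile-up site only if so classed in both control replicates, which favours sites high in controls. Etf1 34931970 and Tfrc 32608983, in the Dicer table only, were among the 6 under -1.5. The 9 genes were chosen with earlier results of these data known, so these counts are no independent evidence. The values for each mRNA follow.

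**Figure D1:**
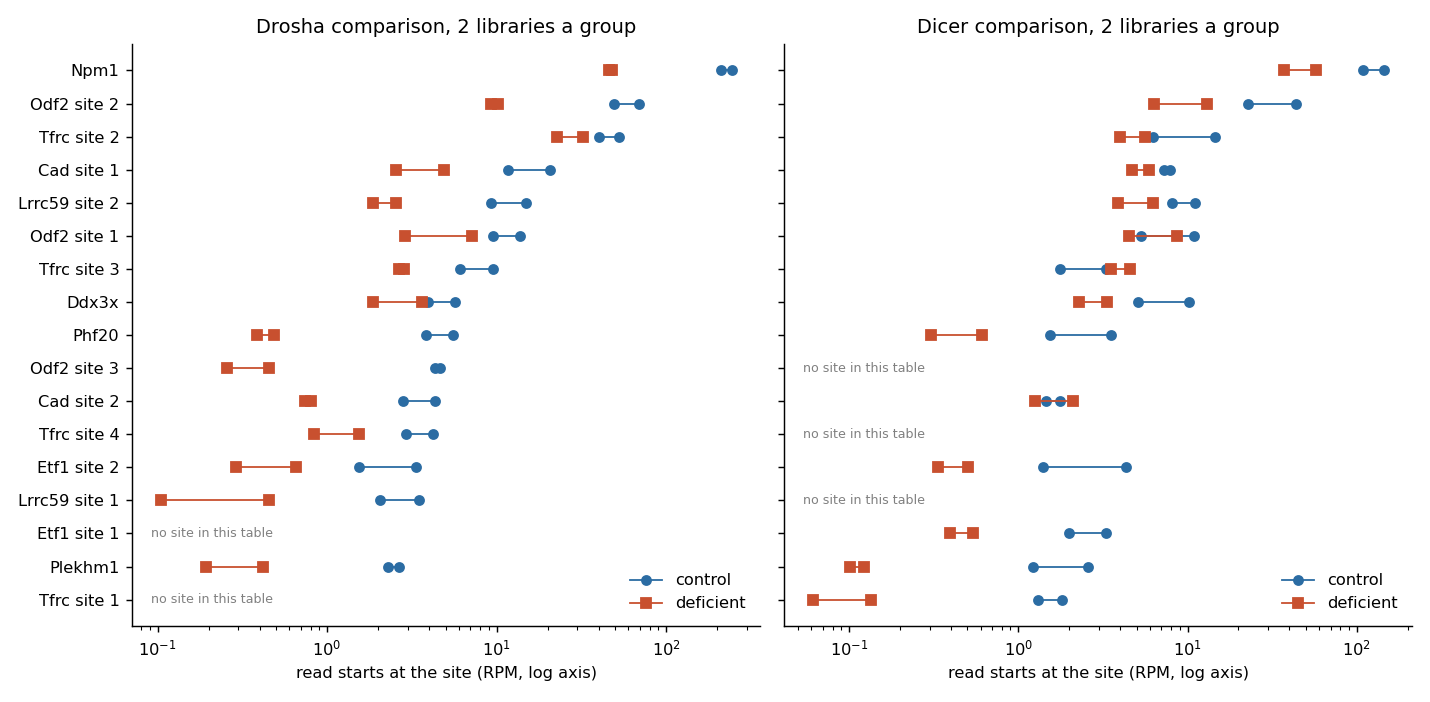
RPM (log axis) of every site of the 9 mRNAs in each library of the Drosha comparison and the Dicer comparison. Each point is 1 library and sites are numbered in the order of transcription. At all 15 sites of the Drosha comparison the deficient libraries lie below the controls, while in the Dicer comparison this holds for 11 of 14 sites and Tfrc site 3 (32631634) has its deficient libraries above.

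Lrrc59 encodes a ribosome-binding membrane protein of the endoplasmic reticulum. At its main site, 94634679, the Drosha control libraries had 14.9 and 9.24 RPM and the deficient libraries 1.87 and 2.54 RPM. The groups did not overlap and the deficient mean was 18.2% of the control mean, a log2 fold change of -2.38 (SE 0.39, limma FDR 9.65e-05), a call lost with edgeR and TMM (-1.47). At the second site, 94634627, the values were 3.49 and 2.05 RPM in controls and 0.452 and 0.104 RPM in deficient libraries. The last of these values is 3 reads, the lowest count taken as more than noise, and the log2 fold change was -3.05 (SE 0.56, limma FDR 0.000247). The main site in the Dicer comparison had 8.08 and 11.1 RPM in controls and 6.28 and 3.88 RPM in deficient libraries. Both deficient values were again the lower ones, but the log2 fold change of -0.92 (SE 0.40) had a limma FDR of 0.507. The second site was not in the Dicer table.

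Cad encodes the multifunctional enzyme that starts pyrimidine synthesis. Its stronger site, 31062477 in exon 15, had 20.8 and 11.7 RPM in the Drosha controls and 4.87 and 2.54 RPM in the deficient libraries (log2 fold change -2.11, SE 0.41, limma FDR 0.000364). The stem-loop site, 31072908 in exon 29, had 4.32 and 2.81 RPM in controls and 0.742 and 0.799 RPM in deficient libraries (log2 fold change -2.04, SE 0.44, limma FDR 0.000852). Both sites thus fell by similar amounts, to 22.8 and 21.6% of control. Without the first control library both calls were lost (-1.70 and -1.74), as they were with edgeR and TMM (-1.19 and -1.25), and that of the stem-loop site also with a pseudocount of 1 RPM (-1.35) and after centring (-1.45). The exon 15 site in the Dicer comparison had 7.87 and 7.29 RPM in controls and 5.91 and 4.70 RPM in deficient libraries, and its log2 fold change was -0.51 (SE 0.34, limma FDR 0.595). The stem-loop site had 1.77 and 1.46 RPM in controls and 2.09 and 1.25 RPM in deficient libraries. Here the groups overlapped, and the log2 fold change was 0.02 (SE 0.47, limma FDR 0.992).

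Npm1 encodes nucleophosmin, a histone and ribosome assembly chaperone of the nucleolus, and its site in exon 5 of 11 carried the most reads of all 17 sites. The Drosha controls had 244 and 210 RPM and the deficient libraries 48.1 and 45.8 RPM. Replicates lay close together and far from the other group (log2 fold change -2.27, SE 0.32, limma FDR 2.63e-05), though with edgeR and TMM the call was lost (-1.33). Its 6 matching bases before the site are given above. The Dicer controls had 145 and 108 RPM and the Dicer-deficient libraries 57.5 and 37.3 RPM. The groups were apart there too, with a log2 fold change of -1.43 (SE 0.35, limma FDR 0.465).

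Etf1 encodes the release factor that ends translation at stop codons. The table of the Drosha comparison held 1 of its sites, 34931647 on the minus strand of chromosome 18, in exon 2 and 7 nt after the first base of the start codon. Its controls had 1.53 and 3.35 RPM and its deficient libraries 0.290 and 0.660 RPM (log2 fold change -2.12, SE 0.53, limma FDR 0.00243). The call was lost with a pseudocount of 1 RPM (-1.18), with edgeR and TMM (-1.46) and without the second control library (-1.59). In the Dicer comparison the same site had 4.34 and 1.40 RPM in controls and 0.507 and 0.336 RPM in deficient libraries. The log2 fold change was of like size there, -2.33 (SE 0.67, limma FDR 0.469). A second site, 34931970, lay in exon 1, 37 nt from the transcript start, and was in the Dicer table only. It had 3.30 and 1.98 RPM in controls and 0.541 and 0.397 RPM in deficient libraries (log2 fold change -2.24, SE 0.52, limma FDR 0.465).

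Ddx3x encodes a DEAD-box RNA helicase that acts in translation initiation. Its site, 13281022 on chromosome X, lay in the 5′ UTR 52 nt from the transcript start. The Drosha controls had 5.68 and 3.93 RPM and the deficient libraries 3.65 and 1.88 RPM. The groups did not overlap, but the highest deficient value came close to the lowest control, and the log2 fold change of -0.83 (SE 0.42) did not pass (limma FDR 0.0962). The Dicer controls had 5.07 and 10.1 RPM and the Dicer-deficient libraries 3.34 and 2.29 RPM (log2 fold change -1.34, SE 0.47, limma FDR 0.469). Ddx3x was the 1 gene of the 9 with no called site in either comparison.

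Odf2 encodes a component of centriole appendages and of the sperm tail. Its main site, 29914447, had 49.2 and 69.1 RPM in the Drosha controls and 10.2 and 9.31 RPM in the deficient libraries (log2 fold change -2.57, SE 0.33, limma FDR 1.78e-05). The site 23 nt downstream, 29914470, had 4.32 and 4.65 RPM in controls and 0.258 and 0.452 RPM in deficient libraries. This was the largest log2 fall of the 15 sites, -3.37 (SE 0.46, limma FDR 2.44e-05), to 7.91% of control. The third site, 29893062, lay in another exon that only 7 of the 14 coding transcripts include. It had 13.8 and 9.51 RPM in controls and 7.19 and 2.88 RPM in deficient libraries, and its log2 fold change of -1.31 (SE 0.42, limma FDR 0.0125) did not reach the size for a call.

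In the Dicer comparison the main Odf2 site had 43.8 and 22.9 RPM in controls and 13.0 and 6.35 RPM in deficient libraries (log2 fold change -1.79, SE 0.49, limma FDR 0.465). The groups were apart, though the control libraries differed widely from each other. At 29893062 the controls had 10.9 and 5.33 RPM and the deficient libraries 8.68 and 4.52 RPM. These groups overlapped, and the log2 fold change was -0.28 (SE 0.51, limma FDR 0.843). The sites of 1 gene therefore differed in value within the same libraries, as the plot of RPM by library shows.

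Phf20 encodes a chromatin protein with domains that read methylated lysine. Its 3′ UTR site had 3.84 and 5.54 RPM in the Drosha controls and 0.387 and 0.487 RPM in the deficient libraries. The deficient mean was 9.32% of control (log2 fold change -3.14, SE 0.45, limma FDR 3.10e-05). In the Dicer comparison the site had 3.53 and 1.54 RPM in controls and 0.608 and 0.306 RPM in deficient libraries. The groups did not overlap, and the log2 fold change was -2.19 (SE 0.62, limma FDR 0.469).

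Plekhm1 encodes an adaptor for the fusion of autophagosomes and endosomes with lysosomes. Its site had 2.65 and 2.29 RPM in the Drosha controls and 0.194 and 0.417 RPM in the deficient libraries (log2 fold change -2.72, SE 0.51, limma FDR 0.000270), a call that was lost with a pseudocount of 1 RPM (-1.41). The Dicer controls had 2.58 and 1.22 RPM and the Dicer-deficient libraries 0.101 and 0.122 RPM. The deficient values are 3 and 4 reads, at and just above the floor of 3 reads, and the log2 fold change was -3.15 (SE 0.68, limma FDR 0.465). This was the lowest log2 fold change of all 4666 sites of the Dicer comparison, where the site kept 5.88% of its control mean.

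The Plekhm1 site paired with miR-106b-5p at 18 of the 20 miRNA positions from 2 to 21, as drawn in capitals above, including the whole seed. For miR-17-5p the count was also 18, for miR-20a-5p 17 and for miR-93-5p 16, whereas miR-16-5p paired at 7. The unpaired positions differed, with G-U pairs taken as paired. Within positions 2 to 21 they were 18 and 20 for miR-106b-5p, and 10 and 18 for miR-17-5p and miR-20a-5p. For miR-93-5p they were 11, 13 and 18. Position 10, opposite the first base of the site, was thus unpaired in miR-17-5p and miR-20a-5p. Among 61 offsets within 30 nt of the site, the position with the site's first base opposite miRNA position 10 gave the highest count for each of the first 4, the next best offset reaching 12, 12, 11 and 11. When 1679 mature mouse miRNAs were laid at this same position on 5988 sites, the best count of a site had a median of 12, and only 3 sites (0.0501%) reached 18, the highest count found. Plekhm1 was among them. The other 16 sites of the 9 mRNAs had best counts of 11 to 14, and the 14, at Etf1 34931970, was reached by 6.86% of all sites. A count of pairs describes the sequence and was not a test of cleavage. Citing earlier work, the paper describes this cut as guided by miR-106b-5p and made by Argonaute2, so that Drosha loss acts on it indirectly. A figure legend in its supplement names miR-16-5p instead.

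**Figure D2:**
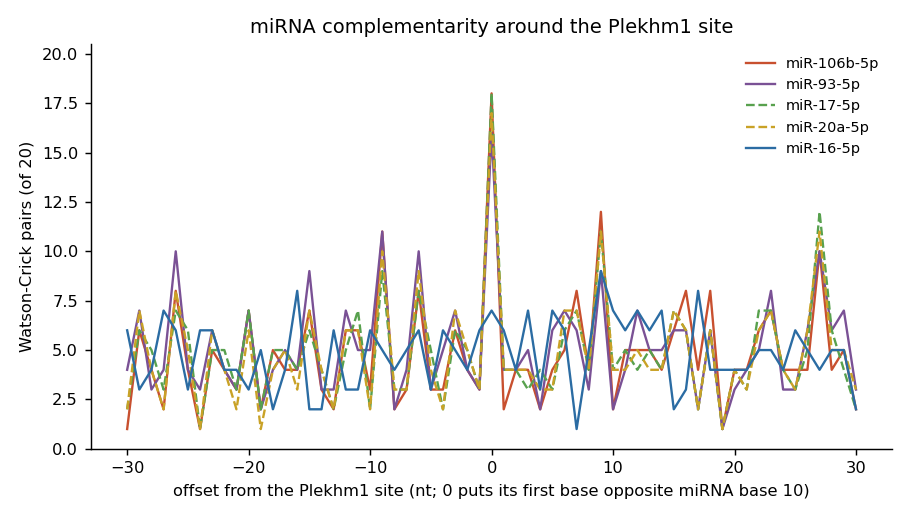
Watson-Crick pairs out of 20 (y axis) between 5 miRNAs and the Plekhm1 mRNA, against the offset in nt from the pile-up site (x axis), where 0 puts the site's first base opposite miRNA position 10. The 4 miRNAs with the shared seed peak at 0 with 16 to 18 pairs, while miR-16-5p has 7 there.

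Tfrc encodes the transferrin receptor, through which cells take up iron. Of the 3 sites in its 3′ UTR (exon 19), the most 5′, 32631596, had the most reads, with 53.0 and 40.3 RPM in the Drosha controls and 32.2 and 22.6 RPM in the deficient libraries. The groups were apart, but the log2 fold change of -0.77 (SE 0.34) did not pass (limma FDR 0.0532). At 32631634 the controls had 9.52 and 6.06 RPM and the deficient libraries 2.65 and 2.85 RPM, with a log2 fold change of -1.44 (SE 0.38, limma FDR 0.00395) just short of the size for a call. At 32631661 the values were 4.22 and 2.91 RPM against 1.55 and 0.834 RPM, just past that size (log2 fold change -1.54, SE 0.44, limma FDR 0.00646). This call was lost with a pseudocount of 1 RPM (-1.06), after centring (-0.94) and with edgeR and TMM (-0.65). It was also lost without the first control (-1.28), the second control (-1.80) or the second deficient library (-1.13).

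In the Dicer comparison the Tfrc sites went different ways. At 32631596 the controls had 6.22 and 14.5 RPM and the deficient libraries 5.61 and 3.97 RPM (log2 fold change -0.99, SE 0.49, limma FDR 0.543). At 32631634, 38 nt downstream, the controls had 1.77 and 3.29 RPM and the deficient libraries 4.56 and 3.51 RPM. It was the 1 site of the 14 with both deficient libraries above both controls, with a log2 fold change of 0.71 (SE 0.45, limma FDR 0.581). Tfrc 32608983, a further site in the 5′ UTR and 63 nt from the transcript start, was in the Dicer table only, with 1.82 and 1.31 RPM in controls and 0.135 and 0.0611 RPM in deficient libraries. The deficient values are 4 and 2 reads, the latter under the floor, and the log2 fold change of -3.08 (SE 0.67, limma FDR 0.465) was the lowest but 1 of all 4666 sites.

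The motif CAGUGN began 14 nt after Tfrc 32631596 and 14 nt after 32631661, and 23 nt after 32631634. A stem was read for the motifs after 32631596 (11 pairs) and 32631661 (15 pairs), but not for the motif after 32631634. A motif at exactly 14 nt was found at 9 of 5988 sites (0.15%), and anywhere in the first 30 bases on the strand of the reads at 1220 sites (20.4%). The distance of 14 nt was read from these 2 Tfrc sites, which are among the 9, so that share is no test. The stretch from 32631536 to 32631781 held 4 of these motifs. Of the 2 sites with the motif at 14 nt, 32631661 was called decreased in the Drosha comparison and 32631596 was not.

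Lrrc59, Cad and Phf20 could be compared as structures. The list as read here held 41 non-miRNA and 68 miRNA stem-loops, which were folded with RNAfold without lonely pairs. The paper's text gives a slightly higher non-miRNA count, and the reason was not examined. The Cad stem-loop, of 85 nt and 29 base pairs, had a minimum free energy of -32.9 kcal/mol and a largest hairpin loop of 9 nt, and its site was in the 5′ arm. Among the 41 non-miRNA stem-loops it ranked 13 by stability, and 11 of the 68 miRNA stem-loops were less stable. The Lrrc59 stem-loop, of 90 nt and 20 base pairs, had -23.2 kcal/mol and a hairpin loop of 32 nt, the largest of the 41 and larger than in any of the 68. Its main site lay in the 3′ arm and its second site in the 5′ arm, on either side of that loop. The main site, at base 76, paired with base 12, and the second site, at base 24, with base 65. These ends therefore did not lie opposite each other in the fold. The Phf20 stem-loop, at chr2:156309736-156309804, was short, with 69 nt and 18 base pairs. Its -14.9 kcal/mol ranked 36 of 41, and each of the 68 miRNA stem-loops was more stable.

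Across the classes, the free energy ran from -52.7 to -10.2 kcal/mol (median -23.8) in the non-miRNA and from -55.2 to -19.9 kcal/mol (median -41.4) in the miRNA stem-loops. The non-miRNA class was every listed stem-loop that the study did not type as miRNA. It therefore includes the Dgcr8 hairpin and loci labelled Mir3473d (the -52.7 kcal/mol), Mir679, Mir3078 and Mir5121. Ensemble diversity, the mean distance between the alternative structures of a sequence, was 10.1 for Cad, 9.91 for Lrrc59 and 6.46 for Phf20, against medians of 12.7 in the non-miRNA and 5.20 in the miRNA class. The last 15 bases of the listed sequence began at the site in 65 of the 68 miRNA and 7 of the 41 non-miRNA stem-loops, and this held for Lrrc59 but not for Cad or Phf20. The counts that missed include 2 miRNA and 13 non-miRNA sequences that were not found on the strand of the site and so could not be placed. The study also built stem-loops that lie downstream of the site, and this layout was not counted. The Cad and Phf20 sites, at base 20 and base 6 of their listed sequences, lay in the 5′ arm. The boundaries were set by the study from the same sites, so no test was made between the classes.

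**Figure D3:**
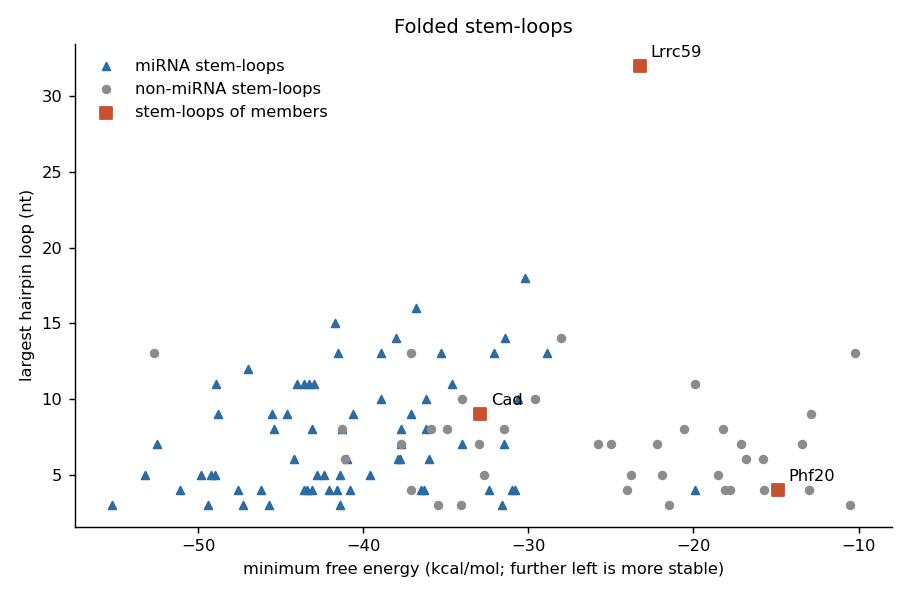
Minimum free energy in kcal/mol against the largest hairpin loop in nt for the 41 non-miRNA and 68 miRNA stem-loops, each point being 1 sequence, with Lrrc59, Cad and Phf20 named. Lrrc59 stands alone at a loop of 32 nt, Cad lies among the miRNA stem-loops at -32.9 kcal/mol, and Phf20 at -14.9 kcal/mol is less stable than all of them.

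The question whether a site depends on Drosha more than on Dicer was put to the 12 shared sites by the difference of the 2 log2 fold changes, fitted over 2595 shared sites. At 8 of the 12 the log2 fold change was lower in the Drosha than in the Dicer comparison, as it was at 60.6% of the shared sites. None passed an FDR of 0.05 in limma, and 4 had an unadjusted p under 0.05, as had 37.6% of the shared sites. Both counts were near these shares. Of the 2595 sites, 44 (1.7%) passed with a lower and 80 with a higher value in the Drosha comparison. These counts depended on single libraries: leaving out any 1 of the 4 Drosha libraries, or the first Dicer-deficient library, brought both counts to 0.

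The sites ranged from a difference of -2.14 to 0.51, with a median of -0.89, against a median of -0.46 over the 2595 shared sites. After centring the libraries these medians became -0.38 and 0.05, with 8 of the 12 sites still lower in the Drosha comparison. Part of each difference below is thus shared by the whole set of sites. The lowest were Tfrc 32631634 with -2.14 (SE 0.59, limma FDR 0.0596) and the Cad stem-loop site with -2.06 (SE 0.65, limma FDR 0.0761). Cad 31062477 followed with -1.60 (SE 0.60, limma FDR 0.0998) and Lrrc59 94634679 with -1.45 (SE 0.57, limma FDR 0.109). These were the 4 sites with an unadjusted p under 0.05. Odf2 29893062 (-1.03, SE 0.78), Phf20 (-0.95, SE 0.82), Npm1 (-0.84, SE 0.44) and Odf2 29914447 (-0.78, SE 0.63) also had the lower log2 fold change in the Drosha comparison, with limma FDRs of 0.192 to 0.407. Etf1 34931647 (0.20, SE 1.01), Tfrc 32631596 (0.22, SE 0.63), Plekhm1 (0.43, SE 0.97) and Ddx3x (0.51, SE 0.68) had it in the Dicer comparison, with limma FDRs of 0.603 to 0.901. For these 8 sites the difference lay within 2 SE of 0, which does not show that they respond alike.

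**Figure D4:**
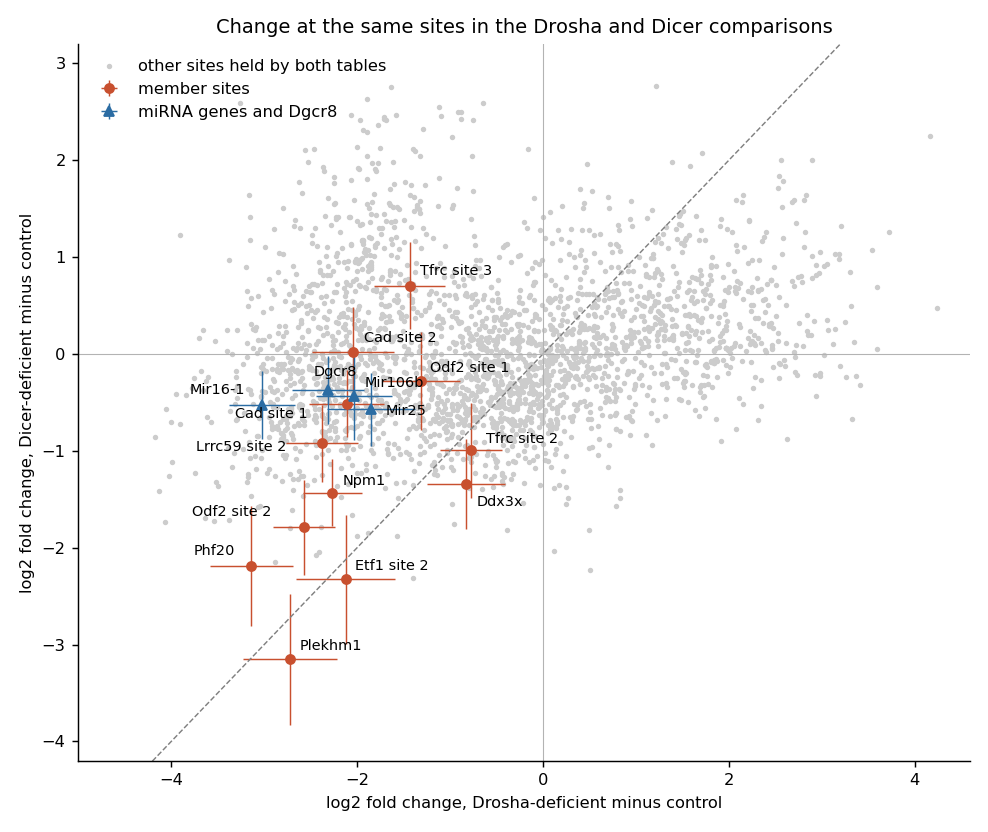
Log2 fold change (deficient minus control, on log2 of RPM plus 0.1) in the Drosha comparison against that in the Dicer comparison, with SE bars, for the 12 shared sites and for 4 reference loci drawn as triangles, with the other shared sites as grey points. Both changes are equal on the dashed line. Of the 12 sites, 8 lie on the same side of it as Dgcr8 and the miRNA genes, as do 60.6% of all shared sites. None of the 12 differences passed an FDR of 0.05 in limma. Plekhm1 and Etf1 lie near the line with log2 fold changes under -2 in both comparisons.

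Reference loci with known Drosha processing give the scale of these values. At the hairpin in the 5′ part of Dgcr8 the log2 fold change was -2.31 in the Drosha and -0.38 in the Dicer comparison (difference -1.93, SE 0.52, limma FDR 0.0586). At Mir16-1 it was -3.02 and -0.53, and this difference of -2.50 (SE 0.46) passed (limma FDR 0.0293). Mir106b, from which miR-106b-5p is made, had -2.03 and -0.43, and Mir25 had -1.85 and -0.57. The log2 falls of Cad and Lrrc59 in the Drosha comparison were of the size seen at these loci. So were those of Npm1 (-2.27), Odf2 29914447 (-2.57), Etf1 (-2.12) and Plekhm1 (-2.72), and 1481 of all 3919 sites were under -1.5. The values of Cad and Lrrc59 in the Dicer comparison ran from -0.92 to 0.02.

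The study's other stem-loops give a second scale. The other 38 non-miRNA stem-loop sites include the Dgcr8 hairpin. Of these 38, 33 were in the Drosha table with 29 called decreased and a median log2 fold change of -1.98. In the Dicer table were 28, with a median of -0.60 and 1 under -1.5. Of the 68 miRNA stem-loop sites, 64 were in the Drosha table with 49 called decreased and a median of -2.09, and 59 were in the Dicer table with a median of -0.25 and 0 under -1.5. The 14 sites of the 9 mRNAs had a Dicer median of -1.39 with 6 under -1.5, namely Plekhm1, Tfrc 32608983, both Etf1 sites, Phf20 and Odf2 29914447. With a pseudocount of 1 RPM these counts became 1 here, 0 in the other non-miRNA and 0 in the miRNA list, with medians of -1.17, -0.49 and -0.18. These lists are described without a test, since the study chose them on the Drosha libraries. The 9 mRNAs were chosen with earlier results of these data known.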

How the data were processed

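Degradome-seq was measured in 8 libraries (2 per group) of mouse ESCs and RNA-seq in 6. The authors trimmed the reads with Trimmomatic (0.38.0), aligned them with STAR to GRCm38 and deposited, per pile-up site, RPM values, that is reads starting at the site scaled to the mapped reads of the library. The deposited RNA-seq table holds the authors' edgeR (3.26.1) comparison; its log2 fold changes, F statistics, p-values and FDRs were not used, and only the log2 CPM column, the authors' mean per gene over all libraries as edgeR made it, was read. The authors made 2 independent libraries per group; where these share a culture, p-values measure technical spread.

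Sites were matched to the 9 genes by the deposited gene names, and matching by position and strand in the annotation gave the same 17. By rule, every site of these genes was named and, for reference, the Dgcr8 hairpin and the sites of Mir106b, Mir93, Mir25, Mir15b, Mir16-1 and Mir16-2 that the tables list, and a gene's main site was the one with the highest control mean. The genes and lists were chosen with earlier results of these data known.

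Values were tested as log2(RPM + 0.1) with limma (3.58.1, R 4.3.3), empirical Bayes with a mean-variance trend and Benjamini-Hochberg adjustment over all sites of a table; a fold change on this scale understates the change of low sites. The thresholds for a call were 0.05 for the FDR and 1.5, in either direction, for the log2 fold change. The difference between the lines was an interaction contrast over 8 libraries. RPM values were whole multiples of 1 read in 100% of cases (within 0.1 read), so edgeR (4.0.16) quasi-likelihood tests with TMM factors were run on the recovered reads as an alternative. The floor was 3 reads per library, 0.0868 to 0.105 RPM, and covers counting error only. The 2 tables were scaled by their own libraries' mapped reads, so levels were compared within a table only. Other alternatives were a pseudocount of 1 RPM, a filter at a mean of 0.3 RPM, centring on the median, scaling by uniquely mapped reads, no trend, a threshold of 1, the replicate number as a term and leaving out each library. Stem-loops, taken as sequences from the study's supplementary list, were folded with RNAfold (2.7.2). Mature miRNAs came from RefSeq (GRCm38.p6).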

Additional observations from a re-analysis of the deposited data

Results flagged for a closer look

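At Mir16-1, the reference locus of miR-16-5p, the effects differed between the lines: the Drosha minus Dicer log2 fold change was -2.50 (limma interaction contrast, FDR 0.0293), with both deficient libraries below both controls in each line. Both counts of sites past the threshold came to 0 without any 1 of the 4 Drosha libraries or without the first Dicer-deficient library, so this call was lost in each of these cases.

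At Tfrc 32631634 the difference of the log2 fold changes was -2.14. Every Drosha-deficient library was lower than its controls and every Dicer-deficient library higher, and the test of the difference gave a limma FDR of 0.0596, which does not pass.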

How the results depend on the processing

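In the Drosha comparison the 1473 sites called decreased became 548 with a pseudocount of 1 RPM, 871 after centring and 636 with edgeR and TMM, and 907 to 1519 with 1 library left out (907 without the first control). The 375 increased sites became 602 after centring and 780 with edgeR and TMM. Of the 15 sites of the 9 mRNAs, 11 were called, 7 with a pseudocount of 1 RPM, 5 with edgeR and TMM, 12 with edgeR without TMM (an alternative chosen after seeing the data) and 8 to 12 with 1 library left out. The Dicer count of 0 became 0 to 1 decreased and 0 to 13 increased with 1 library left out (1 and 13 without the second deficient library). In the difference, the 44 lower and 80 higher sites became 123 and 287 after centring, and ranged from 0 to 726 and from 0 to 243 with 1 library left out (726 and 243 without the first Dicer control, 425 lower without the second Dicer-deficient library, 14 and 22 without the second Dicer control). The shared sites of these mRNAs that passed ranged from 0 to 2. The causes of these changes were not tested.

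With the replicate block (the replicate number as a term), the Dicer comparison called 67 sites decreased and 119 increased, among them 6 of the 14 (both Etf1 sites, Odf2 29914447, Phf20, Plekhm1 and Tfrc 32608983). The difference then called 934 lower and 386 higher, among them 4 of the 12 (both Cad sites, Lrrc59 94634679 and Tfrc 32631634). It changed no Drosha call of the 15. The deviations of same-numbered libraries correlated at 0.13 (Drosha) and 0.53 (Dicer), over 2 pairs each; the samples share only a number in the labels.

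Direction turned for Ddx3x (0.12) and Tfrc 32631596 (0.16) with edgeR and TMM in the Drosha comparison, for Cad 31072908 in the Dicer comparison with uniquely mapped reads (-0.11) and with 1 library left out (-0.33 to 0.36), and for Odf2 29893062 there (-0.79 to 0.23). Differences that turned were Plekhm1 (-0.071 with a pseudocount of 1 RPM, -0.073 to 0.94 with 1 library left out), Etf1 (-0.58 to 0.99) and Tfrc 32631596 (-0.38 to 0.82). Depth limits the values under about 0.1 RPM, which are 2 to 4 reads.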
